A study of Mus musculus with 48 samples.

Results

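The response of astrocytes to aldosterone was read from 8 of the 48 arrays of the series, 4 from cultures given aldosterone and 4 from cultures given vehicle, which were chosen by their labels with no use of the measured values. The cells were primary striatal astrocytes of C57Bl/6J mice in the first postnatal week. They were enriched with magnetic beads against GLAST, the glutamate transporter Slc1a3, grown in serum and kept in medium with no supplement for the last day. Aldosterone was given at 200 nM for 4 h, and the control cultures received the dilute ethanol used as solvent. The same 4 h design was applied to dexamethasone (100 nM), progesterone, dihydrotestosterone and estradiol (200 nM each), and to primary striatal neurons from embryos, so that the series holds 12 groups of 4 arrays. Bead enrichment leaves other cells in such a culture, and by the paper's account the neuronal cultures held a few astrocytes. In bulk RNA fewer cells of a type and less RNA per cell cannot be told apart.

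Aldosterone is the principal mineralocorticoid of the adrenal cortex. It binds the mineralocorticoid receptor, encoded by Nr3c2, with high affinity, and it can also occupy the glucocorticoid receptor, encoded by Nr3c1. Both proteins are held by Hsp90 chaperones until hormone binds, then enter the nucleus and attach to the same kind of DNA element, so many genes respond to either receptor. In kidney epithelium the hormone is known for raising the kinase gene Sgk1 and, through it, sodium uptake, whereas in brain it acts on neurons and glia that mostly lack the enzyme that protects the mineralocorticoid receptor from glucocorticoids.

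The element shared by these receptors is a pair of TGTTCT-like hexamers that face each other across 3 bases, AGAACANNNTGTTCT in full, with GNACANNNTGTNC as its most conserved bases. RefSeq promoters (GRCm38.p6, 250 bases before to 50 after each start) were available for 15783 of the genes measured, and both strands were searched. The full element was in the promoters of 2 genes (0.0127%), the conserved bases in those of 77 (0.488%) and the single hexamer TGTTCT in those of 2838 (18%). Among the genes that were higher with aldosterone and had a promoter here, 6 of 132 held the conserved bases (4.55%), and among those lower 1 of 49 (2.04%). The single hexamer, which the longer patterns overlap, was in 20 of the 132 (15.2%) and in 3 of the 49 (6.12%). These windows are shown because most of their genes are described below, with Map7d2 and Fkbp7 added for their matches after the values were seen, each as 61 bases on the strand of the gene with the conserved bases of the match in capitals, and they are given as descriptions with no test.
Sgk1: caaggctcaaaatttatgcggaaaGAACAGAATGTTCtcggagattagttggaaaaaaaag
Slc10a6: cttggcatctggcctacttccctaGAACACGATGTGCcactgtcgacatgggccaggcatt
Fam107a: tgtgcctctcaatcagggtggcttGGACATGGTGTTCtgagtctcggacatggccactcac
Folh1: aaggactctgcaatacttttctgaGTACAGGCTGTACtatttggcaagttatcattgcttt
Map3k6: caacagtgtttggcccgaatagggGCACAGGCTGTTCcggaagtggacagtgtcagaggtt
Map7d2: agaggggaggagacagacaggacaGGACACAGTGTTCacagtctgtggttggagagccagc
Fkbp7: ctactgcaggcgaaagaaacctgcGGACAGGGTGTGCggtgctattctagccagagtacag
The Sgk1 window (chr10:21993678-21993738, + strand) holds the full element, with the flanking a and t in lower case, and its match begins 188 bases before the annotated start. The match begins 163 bases before the start in Slc10a6 (chr5:103629530-103629590, - strand), 120 in Fam107a (chr14:8309861-8309921, - strand), 198 in Folh1 (chr7:86776026-86776086, - strand), 181 in Map3k6 (chr4:133240613-133240673, + strand) and 153 in Fkbp7 (chr2:76673215-76673275, - strand), and it begins 11 bases after the start in Map7d2 (chrX:159459111-159459171, + strand). On the log2 scale the 6 genes that were higher ran from 0.42 ± 0.09 (SE) for Map7d2 to 2.11 ± 0.10 for Slc10a6, and Fkbp7 was lower by -0.63 ± 0.13. The calls of Map7d2 and Fkbp7 rested on single arrays, since that of Map7d2 stood only without vehicle array 3 and that of Fkbp7 was lost without aldosterone array 3 or 4 or vehicle array 4 (adjusted p up to 0.0332 and 0.0440). The promoters of Fkbp5, Tsc22d3 and Per1 were also searched and had no match in this window, which says only that these letters are not there.

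The arrays read mRNA through 46174 probes as log2 intensity normalized between arrays. A gene is represented by its probe of highest mean over the 24 astrocyte arrays (20250 genes). These include the steroid arrays, so for genes near background the choice can favor a probe that rises. Values on the 8 arrays ran from 6.02 to 16.65, and 63% of the probes had a mean under 7.5, a level called near background here. Arrays of 1 group correlated at r of 0.992 to 0.995 over probes (12 pairs), and probes are not independent replicates. A match of values to the unnormalized table placed arrays of the same number on 1 chip, so by that match each aldosterone array has a vehicle partner. The identifiers in the sample descriptions place these aldosterone and vehicle arrays on different chips instead, and just 1 of 48 matched by value. If those identifiers were right, chip and treatment could not be told apart. The paper states that its groups were spread equally over the hybridization batches. By the value match each treatment lay at the same place on every chip, so place and treatment cannot be told apart. The astrocyte markers were far above background in both groups, with a mean over 10 markers of 13.28 to 13.38 on the vehicle arrays and 13.29 to 13.38 on the aldosterone arrays. The 10 microglial markers averaged 11.51 to 11.62 with vehicle and 11.57 to 11.65 with aldosterone, with only Ptprc averaging under 7.5 (Cx3cr1 13.65 and Aif1 13.33 with vehicle), and none passed the test, C1qa (0.37, adjusted p = 0.0453) and Cd68 (0.34, adjusted p = 0.0401) included. The neuronal markers averaged 8.70 to 8.88 and 8.74 to 8.84, with Map2 at 12.67 and Rbfox3 at 7.20 with vehicle, and none of 10 passed. Markers of the oligodendrocyte lineage averaged 9.11 to 9.29 with vehicle and 9.28 to 9.63 with aldosterone (median difference 0.16, none of 9 passed), and none passed among those of endothelial cells and pericytes (8) or fibroblasts (6). The part of these cells in the results below was not tested beyond the values given beside them.

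Aldosterone changed the mRNA of 222 of the 20250 genes (1.1%) at a false discovery rate (FDR) of 0.01. There were 161 genes higher (0.795%) and 61 lower (0.301%), from 344 of 46174 probes (0.745%), 255 higher (0.552%) and 89 lower (0.193%). The rises were larger than the falls. The median log2 difference was 0.60 among the genes that were higher and -0.54 among those lower, against 0.02 over all genes, and 26 genes rose by at least 1 on the log2 scale but only Cxcl10 fell by as much. In all 161 and all 61 the 4 pairs of same-numbered arrays differed in the same direction. The fit that chose these genes is paired by array number and favors this, so it is no separate support. The 4 aldosterone arrays lay wholly above the 4 vehicle arrays for 153 of the 161 genes and wholly below for 48 of the 61, where 3.44% and 1.76% of all genes separated that way. Without the pairing by array number 148 probes were higher and 27 lower.

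**Figure D1:**
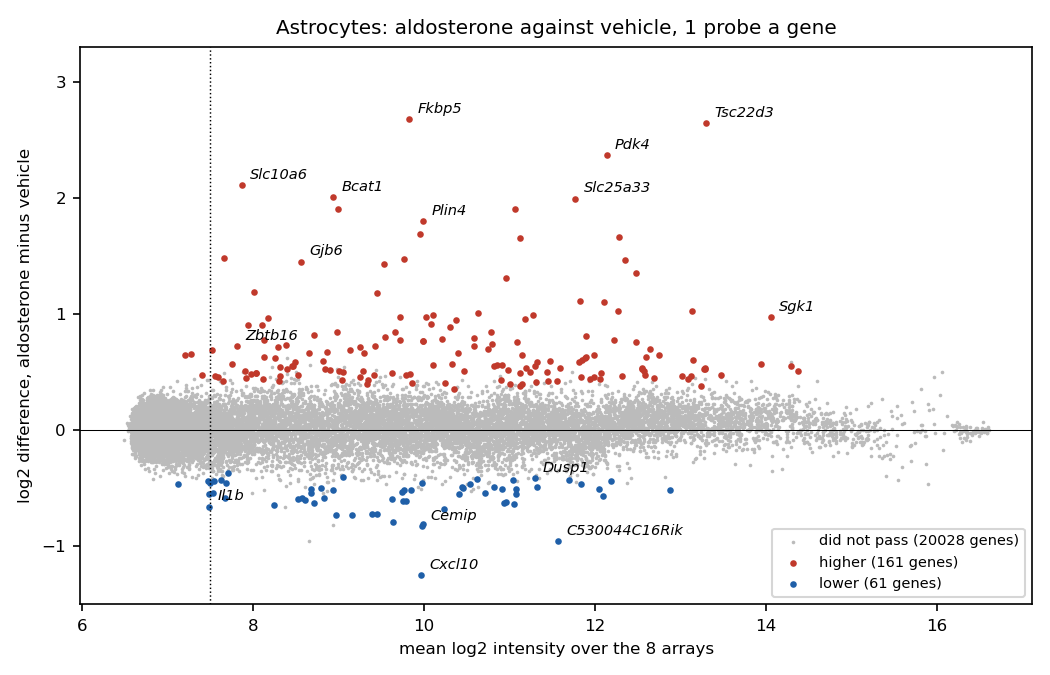
Mean log2 intensity over the 8 arrays (horizontal axis) against the log2 difference of aldosterone minus vehicle (vertical axis) for 20250 genes in astrocytes, with genes past FDR 0.01 in red (161 higher) and blue (61 lower). The dotted line marks 7.5, and the rises reach 2.68 (Fkbp5) while the falls end at -1.25 (Cxcl10).

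The genes with the largest rises were Fkbp5 and Tsc22d3, both standard reporters of corticosteroid receptors. Fkbp5 encodes an immunophilin of the Hsp90 complex that makes the glucocorticoid receptor less sensitive to hormone. Its log2 intensity was 8.41, 8.70, 8.17 and 8.66 on vehicle arrays 1 to 4 and 11.17, 11.28, 11.04 and 11.16 on aldosterone arrays 1 to 4. Every aldosterone array was more than 2 units above every vehicle array, and the difference was 2.68 ± 0.10 (log2, SE, 4 arrays against 4; 6.40-fold; adjusted p = 4.77e-20). Tsc22d3, which encodes the leucine zipper protein Gilz, an inhibitor of inflammatory transcription factors, gave 12.02, 11.77, 12.09 and 12.03 with vehicle and 14.52, 14.64, 14.64 and 14.69 with aldosterone. The arrays of each group lay within a narrow band and the groups were far apart, with a difference of 2.65 ± 0.11 (adjusted p = 2.21e-18), and a second probe of the gene gave 2.70 ± 0.12. Of the 73 named genes past the threshold, 21 had another probe with a mean of at least 7.5. All such probes passed for 6 of these genes and at least 1 did not for the other 15, and of the 17 probes that missed, 16 differed in the same direction and 1 of Nfkbia (-0.05) did not.

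Of the 32 glucocorticoid receptor targets, 19 were higher and 1 was lower, with a median of 0.62 against 0.02 over all genes. Over all genes 0.795% were higher and 0.301% lower, and these shares belong beside the counts of every list below. The lists were chosen with earlier results of these data known, so such counts describe the members and give no independent support. Besides Fkbp5 and Tsc22d3, the largest were Pdk4 (2.37), Slc10a6 (2.11), Per1 (1.91), Fam107a (1.66), Sult1a1 (1.66) and Klf9 (1.47), all on the log2 scale. Mfsd2a, a transporter of lysophosphatidylcholine, rose by 1.02 ± 0.10 and Mertk, a receptor for the uptake of dying cells and synapses, by 0.99 ± 0.08. A second, dimmer Mertk probe (mean 7.85) gave 0.15 and did not pass (adjusted p = 0.708). Errfi1, an inhibitor of the epidermal growth factor receptor, rose by 0.95 ± 0.10, and the alpha-arrestin gene Arrdc2 by 0.78 ± 0.13, with a second probe that did not pass (0.36, adjusted p = 0.0965). Lower rises were those of Lcn2, a secreted iron-siderophore carrier (0.76 ± 0.12), Hif3a, a member of the hypoxia-inducible factor family (0.65 ± 0.09), Ddit4, an inhibitor of mTOR signaling (0.59 ± 0.08), Nfkbia, the inhibitor of NF-kB (0.56 ± 0.09), and Plekhf1 (0.49 ± 0.09). Other dim probes of Hif3a gave -0.15 and 0.01 and did not pass. The Plekhf1 call was lost without aldosterone array 2 (0.41, adjusted p = 0.0216) or vehicle array 4 (0.47, adjusted p = 0.0101), and a second probe did not pass (0.35, adjusted p = 0.0329). The remaining 12 members had differences from -0.10 to 0.45 and did not pass.

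Dusp1, a phosphatase that inactivates MAP kinases, was the member of that list that was lower. Its values were 11.52, 11.55, 11.32 and 11.62 with vehicle and 11.01, 11.01, 11.08 and 11.26 with aldosterone. The groups did not overlap, but the gap was small, and the difference of -0.41 ± 0.08 (adjusted p = 0.00248) lost its call without any of 4 arrays, aldosterone 1 or 2 or vehicle 1 or 2 (adjusted p of 0.0103 to 0.0190). With dexamethasone the same probe differed from vehicle by 0.26 (adjusted p = 0.0448, not past the threshold).

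Genes known as aldosterone targets in sodium-transporting epithelium rose in part. Of 24 measured members, 7 were higher (Fkbp5, Tsc22d3, Per1, Klf9, Sgk1, Zbtb16 and Usp2) and none lower, against 0.795% and 0.301% of all genes. The median was 0.16. All of the 7 but Usp2 also stand among the glucocorticoid receptor targets. Sgk1, the serum- and glucocorticoid-regulated kinase whose promoter is shown above, was 13.82, 13.72, 13.24 and 13.51 with vehicle and 14.65, 14.67, 14.11 and 14.74 with aldosterone. The third array was the lowest of both groups, each pair rose, and the difference was 0.97 ± 0.11 (adjusted p = 1.76e-07). Zbtb16, a zinc finger repressor of transcription, was near background with vehicle (7.83, 7.24, 7.32 and 7.41) and reached 8.21, 8.04, 8.41 and 8.04 with aldosterone. The groups did not overlap, although vehicle array 1 came close to the lowest aldosterone arrays, and the difference was 0.72 ± 0.10 (adjusted p = 9.28e-06). Usp2, a deubiquitinase, rose by 0.63 ± 0.11 (adjusted p = 0.000447). The transport proteins themselves did not pass: the sodium channel subunits Scnn1a, Scnn1b and Scnn1g differed by 0.16, -0.07 and 0.17, the sodium pump subunits Atp1b1 and Atp1b2 by 0.14 and 0.04, and the cotransporter gene Slc12a2 by 0.10, and all 17 members not past the threshold lay between -0.36 and 0.31.

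The receptors and their enzymes did not pass either. Nr3c1, the glucocorticoid receptor gene, was read near background at 7.30, 7.22, 7.03 and 7.19 with vehicle and 6.84, 6.85, 6.95 and 7.03 with aldosterone (-0.27 ± 0.09, adjusted p = 0.114). Nr3c2, the mineralocorticoid receptor gene, was at 6.75 to 6.85 with vehicle and 6.68 to 6.80 with aldosterone (-0.08 ± 0.08). Pgr, Esr1 and Esr2 also lay under 7.5, as did Hsd11b2, which inactivates glucocorticoids, so these probes carry little information on the receptor levels. Hsd11b1, which regenerates active glucocorticoids, was measured at 9.22 to 9.71 with vehicle and 9.30 to 9.55 with aldosterone (0.02 ± 0.09). None of 12 coregulator genes passed, with differences from -0.19 to 0.24.

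**Figure D2:**
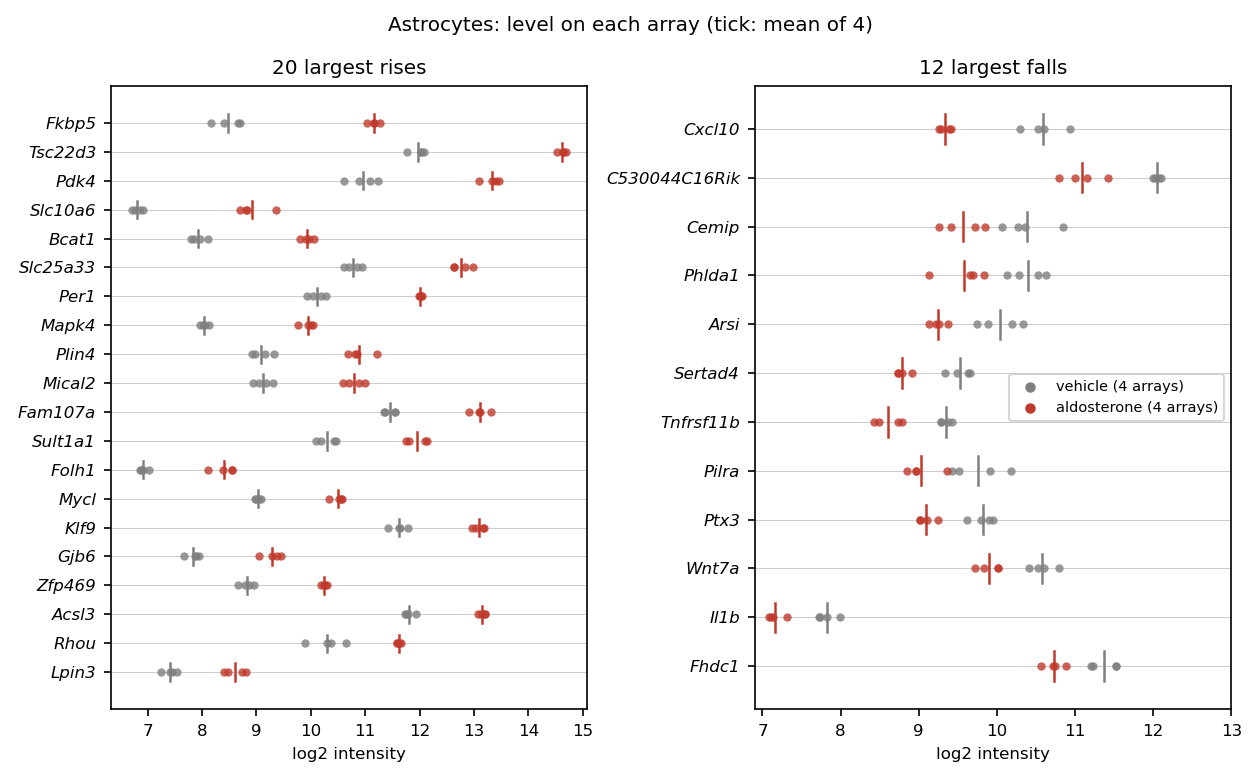
Log2 intensity (horizontal axis) on each of the 4 vehicle arrays (grey) and 4 aldosterone arrays (red) for the 20 genes with the largest rises and the 12 with the largest falls, with ticks at the means. The groups do not overlap for any of these genes, which was a condition for their choice, and the gap narrows from Fkbp5 (2.68) to Lpin3 (1.19) and from Cxcl10 (-1.25) to Fhdc1 (-0.64).

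Among the largest rises was a gene of fuel use. Pdk4, a kinase that shuts off pyruvate dehydrogenase and so spares glucose, was 11.09, 11.24, 10.88 and 10.61 with vehicle and 13.41, 13.46, 13.33 and 13.10 with aldosterone. All 4 pairs rose by more than 2 units, and the difference was 2.37 ± 0.09 (5.17-fold; adjusted p = 7.33e-20), while a second, dim probe of the gene differed by -0.19 and did not pass. It was the only 1 of 28 genes of glucose and energy metabolism that passed, and the other 27 lay between -0.33 and 0.50. Slc2a1, the glucose transporter of the blood-brain barrier and astrocytes, was 13.78, 13.73, 13.42 and 13.95 with vehicle and 13.81, 13.90, 13.69 and 14.23 with aldosterone. These groups overlap, and the difference of 0.19 ± 0.09 did not pass (adjusted p = 0.381).

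Among 28 genes of lipid storage and fatty acid metabolism, 4 were higher and none lower, against 0.795% and 0.301% of all genes (median 0.07). Plin4, a coat protein of lipid droplets, was 9.32, 9.16, 8.92 and 8.97 with vehicle and 11.21, 10.85, 10.69 and 10.81 with aldosterone, a difference of 1.80 ± 0.10 (adjusted p = 3.51e-15). The other perilipin genes differed by -0.19 (Plin1), -0.02 (Plin2), 0.03 (Plin3) and 0.22 (Plin5) and did not pass. Acsl3, which activates long-chain fatty acids at the droplet surface, rose by 1.35 ± 0.09, Lpin3, a phosphatidate phosphatase, by 1.19 ± 0.10, and Pnpla2, the triglyceride lipase of the droplet, by 0.54 ± 0.09.

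In the list of mitochondrial carriers and branched-chain amino acid genes, 3 of 24 were higher and none lower (median 0.05). Over all genes the shares were 0.795% and 0.301%. Bcat1, the cytosolic transaminase of leucine, isoleucine and valine, went from 7.96, 7.86, 8.11 and 7.79 to 10.06, 9.91, 9.97 and 9.81, a difference of 2.01 ± 0.10 (4.02-fold). Slc25a33, which carries pyrimidine nucleotides into mitochondria, went from 10.95, 10.85, 10.70 and 10.61 to 12.83, 12.63, 12.64 and 12.98 (1.99 ± 0.09). The arrays of each group scattered little beside the gap between the groups. The mitochondrial transaminase gene Bcat2 rose by 0.48 ± 0.09 (adjusted p = 0.00316), a call lost without aldosterone array 3 or vehicle arrays 1, 2 or 4 (adjusted p of 0.0128 to 0.0337).

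Transcription factors formed a further group, with 7 of 25 Krüppel-like and related factors higher and none lower (median 0.17). Over all genes the shares were 0.795% and 0.301%. Klf9, a factor that responds to corticosteroids in brain, was 11.79, 11.64, 11.42 and 11.63 with vehicle and 13.17, 13.19, 12.96 and 13.03 with aldosterone (1.47 ± 0.10, adjusted p = 3.32e-13), and a second probe gave 1.10 ± 0.12. Klf13 rose by 0.81 ± 0.08, Klf7 by 0.65 ± 0.08, the forkhead factor genes Foxo1 by 0.69 ± 0.10 and Foxo3 by 0.54 ± 0.10, and Trp63, a relative of the tumor suppressor gene Trp53, by 0.51 ± 0.08. Other bright probes of Klf7 gave 0.52 ± 0.08, which passed, and 0.295 ± 0.09 (adjusted p = 0.0779), which did not. Mycl, a Myc family gene that was not on the list, went from 8.98 to 9.09 with vehicle to 10.33 to 10.58 with aldosterone (1.47 ± 0.09). Of 17 immediate early genes only Fosl2, an AP-1 subunit, passed (0.58 ± 0.09), whereas Fos differed by -0.44 (adjusted p = 0.021) and Jun by -0.33 (adjusted p = 0.056).

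The circadian clock list moved in a few members. Per1, a repressor in the clock loop that is also a direct corticosteroid target, was 10.18, 10.28, 10.05 and 9.93 with vehicle and 12, 11.99, 12.03 and 12.04 with aldosterone. The aldosterone arrays agreed to within 0.05, and the difference was 1.91 ± 0.10 (3.75-fold; adjusted p = 7.60e-16). Per2 rose by 0.57 ± 0.09, with a second probe at 0.48 (adjusted p = 0.0105), and Nr1d2, a nuclear receptor that represses Bmal1, was lower by -0.60 ± 0.12 (adjusted p = 0.00268). Its groups overlapped, and the call was lost without aldosterone array 4 or vehicle array 2 or 4 (adjusted p of 0.0185 to 0.0408). The other 16 of 19 members, among them Clock (0.02) and Cry2 (-0.01), lay between -0.24 and 0.35.

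Signaling genes with rises included kinases and their brakes. Mapk4, an atypical MAP kinase, went from 8.12, 8.06, 8.02 and 7.96 to 10.01, 9.94, 10.04 and 9.77 (1.90 ± 0.09, adjusted p = 1.62e-17), and Map3k6, a stress-activated kinase whose promoter window is shown above, rose by 0.90 ± 0.10. Of 25 genes of the MAP kinase pathway and its feedback, these and Errfi1 were higher and Dusp1 was lower (median 0.04). In the list of insulin and mTOR signaling, Pik3r1 (0.60 ± 0.09), a regulatory subunit of phosphoinositide kinase, Ddit4 (0.59 ± 0.08) and Sesn1 (0.56 ± 0.08), a stress-induced inhibitor of mTOR, were the 3 of 25 that passed (median 0.02). Other bright probes did not pass for Pik3r1 (0.46, adjusted p = 0.0215) and Sesn1 (0.30, adjusted p = 0.109). Among 28 genes of growth arrest and survival, Bcl2l1, which encodes the survival protein Bcl-xL, rose by 0.74 ± 0.11, Ddit4 and Sesn1 were the others that passed, and the median was -0.02.

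Genes of cell shape and contact changed in both directions. Gjb6, which encodes connexin 30 of astrocyte gap junctions, was 7.87, 7.95, 7.66 and 7.88 with vehicle and 9.46, 9.28, 9.38 and 9.04 with aldosterone (1.45 ± 0.11, adjusted p = 3.84e-11). Gja1, the other main astrocyte connexin gene, did not pass (-0.14, adjusted p = 0.779), and Gjb2, for connexin 26, was lower by -0.46 ± 0.10 (adjusted p = 0.00651). The Gjb2 call stood only without vehicle array 2 or 4 and was lost without any 1 of the other 6 arrays (adjusted p up to 0.0483). Tns1, a focal adhesion protein, rose by 1.18 ± 0.10 and Jaml, a junctional adhesion molecule, by 0.46 ± 0.09, a call lost without aldosterone array 1 (adjusted p = 0.0189). In all 3 of 21 members of the list were higher and 1 lower. Outside the list, Mical2, an oxidase of actin, rose by 1.69 ± 0.10 and Fam107a, an actin-binding protein induced by stress, by 1.66 ± 0.11.

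Further large rises were those of Slc10a6, Folh1, Sult1a1 and Zfp469. Slc10a6, a carrier of sulfated steroids, was at background with vehicle (6.91, 6.77, 6.72 and 6.85) and reached 9.36, 8.81, 8.69 and 8.83 with aldosterone (2.11 ± 0.10, adjusted p = 1.32e-16). Folh1, the peptidase that splits the neurotransmitter N-acetylaspartylglutamate, went from 6.86, 7.02, 6.92 and 6.88 to 8.56, 8.11, 8.56 and 8.39 (1.49 ± 0.10). Detection calls were not among the values used, so no lower bound was set for genes that start at background. Sult1a1, a phenol sulfotransferase, rose by 1.66 ± 0.11 and the zinc finger gene Zfp469 by 1.43 ± 0.08. The astrocyte marker Fgfr3, a fibroblast growth factor receptor, rose by 0.66 ± 0.10 while the other 9 markers lay between -0.33 and 0.17, and the calcium-permeable channel gene Trpv4 rose by 0.48 ± 0.09 as the only 1 of 21 channel genes, a call lost without aldosterone array 1 or vehicle array 1 or 4 (adjusted p of 0.0119 to 0.0170). No gene passed among 14 of glutamate handling, water and potassium, 17 of metallothioneins and oxidative stress or 21 of the interferon response.

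The largest fall was that of a chemokine gene. Of 29 cytokines and chemokines measured, 5 were lower and none higher, against 0.301% and 0.795% of all genes, with a median of -0.11. Cxcl10, a chemokine for T cells, was 10.52, 10.93, 10.60 and 10.30 with vehicle and 9.41, 9.28, 9.26 and 9.39 with aldosterone. The 4 treated arrays lay close together nearly 1 unit below the lowest control, the difference was -1.25 ± 0.13 (adjusted p = 7.36e-08), and a second probe gave -0.83 ± 0.12. Il1b, for interleukin 1 beta, was 7.72, 7.99, 7.83 and 7.74 with vehicle and 7.32, 7.13, 7.11 and 7.08 with aldosterone (-0.66 ± 0.10, adjusted p = 4.97e-05), so it ended under 7.5. Csf1, a growth factor of microglia and macrophages, was lower by -0.62 ± 0.11, a call lost without vehicle array 2 (-0.49, adjusted p = 0.0131). Ccl4, a chemokine of myeloid cells, was lower by -0.57 ± 0.12 (adjusted p = 0.00434) and Tnf, tumor necrosis factor, by -0.45 ± 0.10 (adjusted p = 0.0087). That of Ccl4 stood only without aldosterone array 2 and that of Tnf only without aldosterone array 3, and without any 1 of the other 7 arrays the adjusted p reached 0.0118 to 0.0555 and 0.0106 to 0.0666. Second probes of Ccl4 (-0.41, adjusted p = 0.0506) and Tnf (-0.35, adjusted p = 0.0313) did not pass. None of the microglial markers was lower past the threshold, and their mean level per array, given above, was 11.57 to 11.65 with aldosterone against 11.51 to 11.62 with vehicle.

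In the list of Toll-like receptor and NF-kB genes, Tlr7, a receptor for single-stranded RNA, rose by 0.64 ± 0.09, Nfkbia rose by 0.56 ± 0.09 and Traf1, an adaptor of tumor necrosis factor receptors, was lower by -0.51 ± 0.10, 3 of 29 members (median -0.02). The Traf1 call was lost without aldosterone array 3 or 4 or vehicle array 4 (adjusted p of 0.0124 to 0.0267), and a second probe did not pass (-0.36, adjusted p = 0.0591). Reactive astrocyte genes were split, with 4 of 34 higher (Slc10a6, Hspb1, Lcn2 and Sphk1), 3 lower (Cxcl10, Ptx3 and S1pr3) and a median of -0.02. Over all genes 0.795% were higher and 0.301% lower. Hspb1, a small heat shock protein, rose by 0.89 ± 0.11 and was, with Fkbp5, 1 of the 2 of 16 chaperone genes that passed. Sphk1, a kinase that makes sphingosine phosphate, rose by 0.69 ± 0.09, whereas S1pr3, a receptor for it, was lower by -0.54 ± 0.10, a call that stood without aldosterone array 1 or 4 or vehicle array 4 and was lost without any 1 of the other 5 arrays (adjusted p of 0.0117 to 0.0283). Gfap and Vim, the filament genes of reactive astrocytes, differed by -0.04 and -0.01.

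Among 32 genes of the extracellular matrix, its proteases and Wnt signaling, 3 were lower and 1 was higher (median -0.07). Over all genes the shares were 0.301% and 0.795%. Cemip, which takes part in hyaluronan breakdown, was 10.27, 10.85, 10.36 and 10.07 with vehicle and 9.41, 9.85, 9.26 and 9.72 with aldosterone. These groups came close to each other at their edges without overlap, and the difference was -0.83 ± 0.12 (adjusted p = 1.85e-05). Tnfrsf11b, which encodes the soluble decoy receptor osteoprotegerin, was lower by -0.73 ± 0.10 and Wnt7a, a Wnt ligand that astrocytes secrete, by -0.69 ± 0.08. Htra1, a secreted serine protease, rose by 0.55 ± 0.10, a call lost without aldosterone array 3 or 4 or vehicle array 1 (adjusted p up to 0.0118). The other largest falls were those of C530044C16Rik (-0.96 ± 0.10), Phlda1 (-0.81 ± 0.11), the arylsulfatase gene Arsi (-0.79 ± 0.09), Sertad4 (-0.73 ± 0.09), Pilra (-0.73 ± 0.12), an inhibitory receptor of myeloid cells, Ptx3 (-0.72 ± 0.10), a secreted pattern recognition protein, and Fhdc1 (-0.64 ± 0.08), a formin-like protein. Other probes of Ptx3 (-0.44, adjusted p = 0.0231), Pilra (-0.46, adjusted p = 0.0102, and -0.245, adjusted p = 0.394) and Arsi (-0.205, adjusted p = 0.315) missed the threshold.

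**Figure D3:**
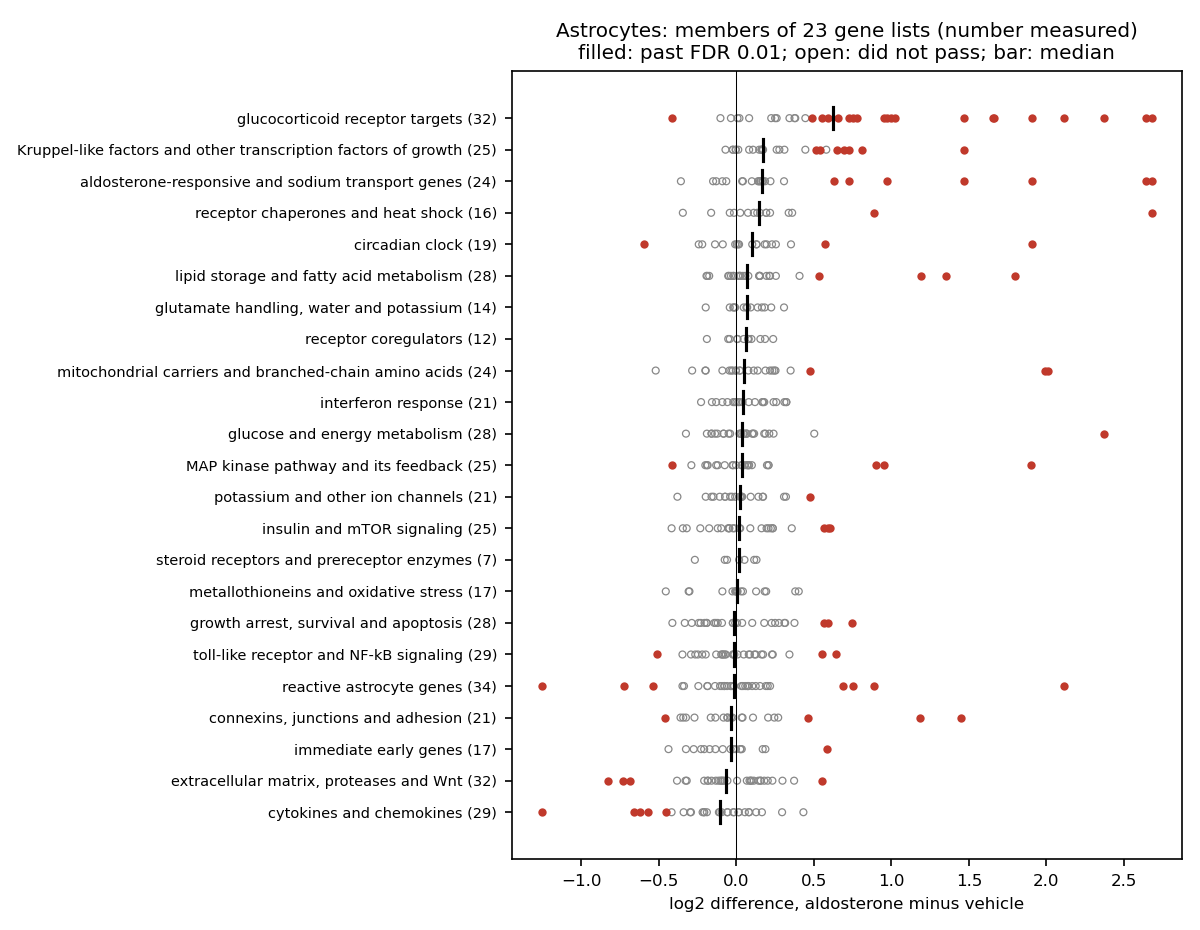
Log2 difference of aldosterone minus vehicle in astrocytes (horizontal axis) for each measured member of 23 gene lists (vertical axis, number measured in brackets), filled where it passed FDR 0.01 and open where it did not, with a bar at the list median. The median is 0.62 for glucocorticoid receptor targets, 0.17 or less for every other list and -0.11 for cytokines and chemokines. The lists were chosen with earlier results of these data known.

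The arrays of the other steroids show where these genes stood under other ligands. All of them share the vehicle arrays with aldosterone, so the values are given side by side and no correlation is drawn from them, and dexamethasone was used at another dose. Fkbp5 differed from vehicle by 2.68 with aldosterone, 4.60 with dexamethasone, 0.64 with progesterone, 0.06 with dihydrotestosterone and 0.10 with estradiol (log2). Gjb6 differed by 1.45, 3.59, 0.06, -0.06 and -0.27 in the same order, and Plin4 by 1.80, 3.74, 0.34, 0.01 and -0.17. The progesterone value of Fkbp5 passed the threshold (adjusted p = 0.000423) and those of Gjb6 and Plin4 did not. Sgk1 gave 0.97, 1.55, 0.24, 0.14 and -0.01, Cxcl10 gave -1.25, -2.09, -0.29, 0.34 and 0.28, and Wnt7a gave -0.69, -2.21, -0.10, 0.02 and 0.12. Klf7 gave 0.65, 0.58 and 0.49 for aldosterone, dexamethasone and progesterone, and Ccl4 gave -0.57 for aldosterone and -2.53 for dexamethasone. Over all genes 617 were higher and 649 lower with dexamethasone (6.25%) and 25 were higher and none lower with progesterone (0.123%), with 2219 at an unadjusted p under 0.05.

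**Figure D4:**
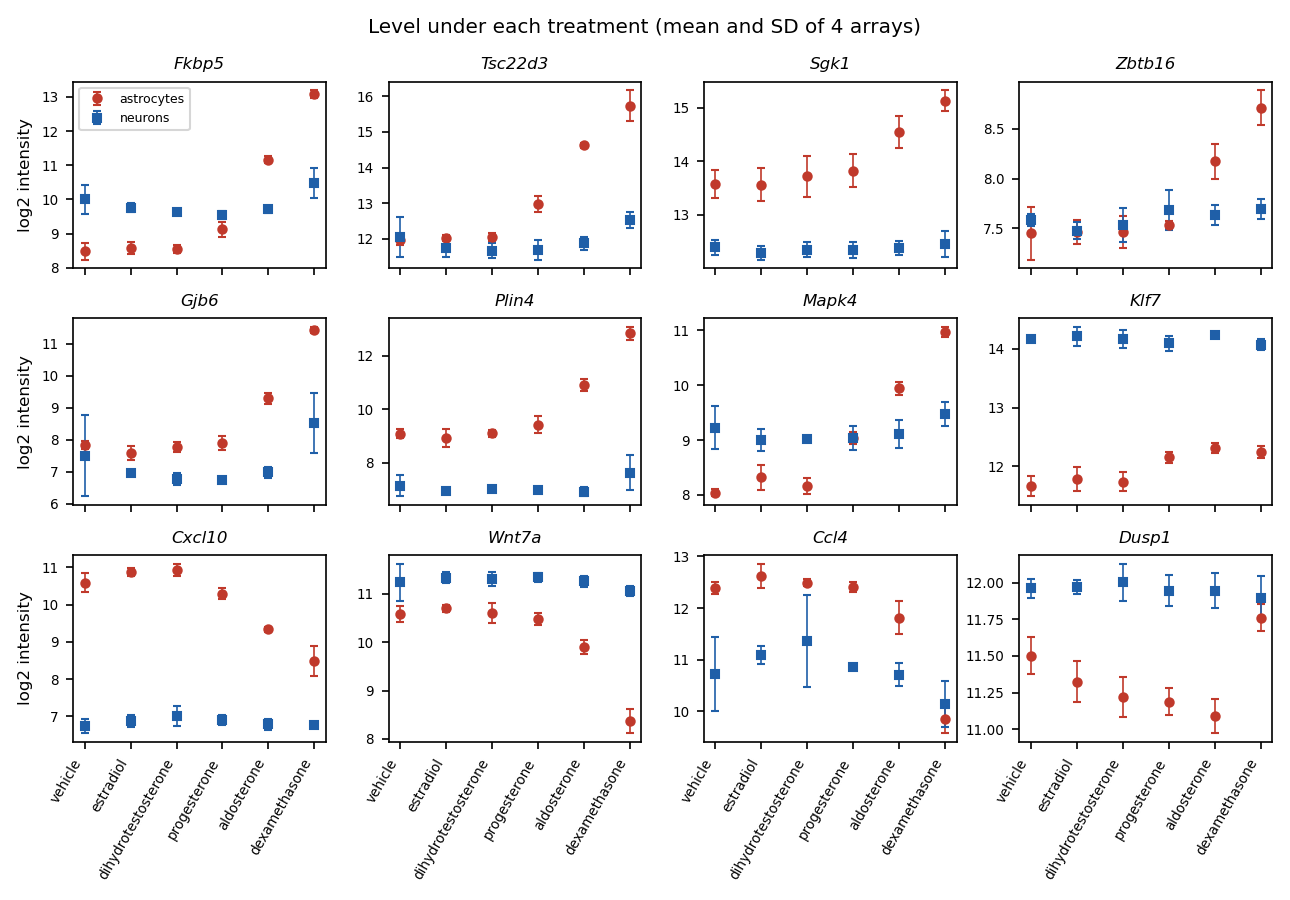
Log2 intensity (vertical axis, own scale for each gene, not starting at 0) under each of 6 treatments (horizontal axis) in astrocytes (red circles) and neurons (blue squares), as mean and SD of 4 arrays, for 12 genes. In astrocytes Fkbp5 stands at 11.16 with aldosterone, between vehicle and dexamethasone, and the wide bar of neuronal vehicle for Gjb6 holds array 3 at 9.41 and the others at 6.74 to 6.99.

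Aldosterone and progesterone were compared directly, because both were given at 200 nM for 4 h and the contrast uses no vehicle array. They share a steroid skeleton, on which aldosterone carries hydroxyl groups and an aldehyde that progesterone lacks. This was the only pair of compounds tested. They differed for 72 genes (0.356%), of which 60 were higher with aldosterone (0.296%) and 12 lower (0.0593%). The largest differences were Fkbp5 (2.04 ± 0.10, adjusted p = 2.44e-16), Tsc22d3 (1.64 ± 0.11), Slc10a6 (1.59 ± 0.10), Pdk4 (1.48 ± 0.09) and Plin4 (1.46 ± 0.10) on the higher side, and Cxcl10 (-0.96 ± 0.13, adjusted p = 3.6e-05), C530044C16Rik (-0.77 ± 0.10), Ptx3 (-0.67 ± 0.10), Tnfrsf11b (-0.64 ± 0.10) and Ccl4 (-0.59 ± 0.12, adjusted p = 0.00739) on the lower. Without any 1 of 7 of the 8 arrays, all but aldosterone array 2, the Ccl4 difference did not pass (adjusted p of 0.0177 to 0.12). Sgk1 (0.72 ± 0.11, adjusted p = 0.000118) and Zbtb16 (0.64 ± 0.10, adjusted p = 0.000226) were also higher with aldosterone. For some genes that aldosterone raised against vehicle, the compounds did not differ past the threshold, as for Klf7 (0.16 ± 0.08), Bcat2 (0.10 ± 0.09) and Foxo1 (0.24 ± 0.10), and among the falls for Cemip (-0.33 ± 0.12) and Il1b (-0.30 ± 0.10). Such a miss does not show that the compounds act alike.

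In neuronal cultures the same dose gave no gene past FDR 0.01 (0%), with 801 of 20250 at an unadjusted p under 0.05. The vehicle array 3 and the dexamethasone array 3 of the neurons read far from the other arrays of their groups: for Pdk4 vehicle array 3 read 11.88 and the others 8.85 to 9.12, and for Fkbp5 it read 10.64 and the others 9.78 to 9.81. The main results on neurons are therefore also given without these 2 arrays, a check on neurons alone that was added after the data were seen. The effect of aldosterone differed between astrocytes and neurons, as a test of the difference itself, for 92 genes (0.454%), 80 more positive in astrocytes (0.395%) and 12 more negative (0.0593%). On probes the count was 129 (0.279%), and it was 113 without the 2 arrays. Of the 43 named genes that differed, 38 kept their call without the 2 arrays and Pilra, Wnt7a, Ddit4, Fosl2 and Pnpla2 lost it (adjusted p of 0.0103 to 0.0394). The largest differences were Fkbp5 (2.98 ± 0.19, adjusted p = 1.01e-16), Tsc22d3 (2.82 ± 0.19), Pdk4 (2.13 ± 0.44, adjusted p = 0.00466), Mapk4 (2.02 ± 0.16) and Plin4 (2.02 ± 0.21) upward, and Cxcl10 (-1.29 ± 0.17), C530044C16Rik (-1.04 ± 0.14), Arsi (-0.87 ± 0.13), Cemip (-0.81 ± 0.14) and Phlda1 (-0.79 ± 0.15) downward. Neuronal vehicle means were 6.75 for Cxcl10, 7.60 for C530044C16Rik and 7.15 for Arsi, at or near background, so a fall in neurons could hardly have been read for these genes and their difference mostly restates the fall in astrocytes. Without the 2 arrays the differences were 2.76 (Fkbp5), 2.63 (Tsc22d3), 1.38 (Pdk4), 1.78 (Mapk4), 1.78 (Plin4), -0.85 (Cemip) and -0.89 (Phlda1), all past the threshold, and without neuron vehicle array 3 alone that of Pdk4 was 1.30 ± 0.26. The Pdk4 call was lost without astrocyte aldosterone array 1, 2 or 3, astrocyte vehicle array 1, 3 or 4 or neuron aldosterone array 3 (adjusted p of 0.0113 to 0.0393), and that of Phlda1 without astrocyte aldosterone array 4, neuron aldosterone array 1 or neuron vehicle array 2 (adjusted p of 0.0120 to 0.0148).

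Fkbp5 in neurons read 9.78, 9.81, 10.64 and 9.80 with vehicle and 9.73, 9.81, 9.57 and 9.71 with aldosterone, so that no aldosterone array exceeded the vehicle range. Its neuronal difference was -0.30 ± 0.13 with the labels as given and -0.09 ± 0.10 without the 2 arrays. Sgk1 read 12.44, 12.31, 12.57 and 12.25 with vehicle and 12.54, 12.23, 12.36 and 12.39 with aldosterone, and the difference between the cell types was 0.98 ± 0.14 (adjusted p = 6.24e-06), or 0.91 ± 0.14 without the 2 arrays. For these genes a rise was seen in astrocytes and none was detectable in neurons.

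Pdk4 and Fam107a behaved otherwise in the neuronal cultures once the odd arrays were set aside. The paper ascribes expression changes in these cultures to a few contaminating astrocytes, which was not tested here. Pdk4 in neurons was 9.12, 8.85, 11.88 and 8.95 with vehicle and 10.10, 10.12, 9.29 and 10.23 with aldosterone, and Fam107a was 7.96, 7.85, 11.73 and 7.89 with vehicle and 9.15, 8.81, 7.96 and 9.25 with aldosterone. On arrays 1, 2 and 4 both genes were higher with aldosterone than with vehicle. Neuron aldosterone array 3 also stood apart, at or close to the level of those vehicle arrays, as it did for Sult1a1 (7.0 against 7.76 to 7.98) and Mertk (8.58 against 9.20 to 9.48), and it was kept in the fit without the 2 arrays. With the labels as given the neuronal differences were 0.24 ± 0.31 and -0.07 ± 0.38, and without the 2 arrays they were 0.99 ± 0.13 (adjusted p = 1.87e-05) and 0.95 ± 0.15 (adjusted p = 0.00148), the only 2 probes that passed in neurons. With the 2 arrays exchanged they were 0.73 ± 0.14 (adjusted p = 0.0527) and 0.55 ± 0.19. Sult1a1 (0.71 ± 0.14, adjusted p = 0.0334) and Mertk (0.58 ± 0.11, adjusted p = 0.0334) did not pass without the 2 arrays. With neuron aldosterone array 3 left out as well, 5 probes passed in neurons, those of Pdk4 (1.18 ± 0.10), Fam107a (1.17 ± 0.12), Sult1a1 (0.88 ± 0.12), the metallothionein gene Mt1 (0.84 ± 0.12) and Mertk (0.69 ± 0.10). The arrays were set aside after values of genes such as these were seen. The neuronal calls of Pdk4, Fam107a, Sult1a1 and Mertk thus partly follow from that choice and are no separate support. For Fam107a the difference between the cell types was 1.73 ± 0.53 (adjusted p = 0.191), and it was 0.71 ± 0.20 without the 2 arrays (adjusted p = 0.138) and 0.49 ± 0.16 without the 3 (adjusted p = 0.283), so no difference between the cell types was shown for that gene.

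**Figure D5:**
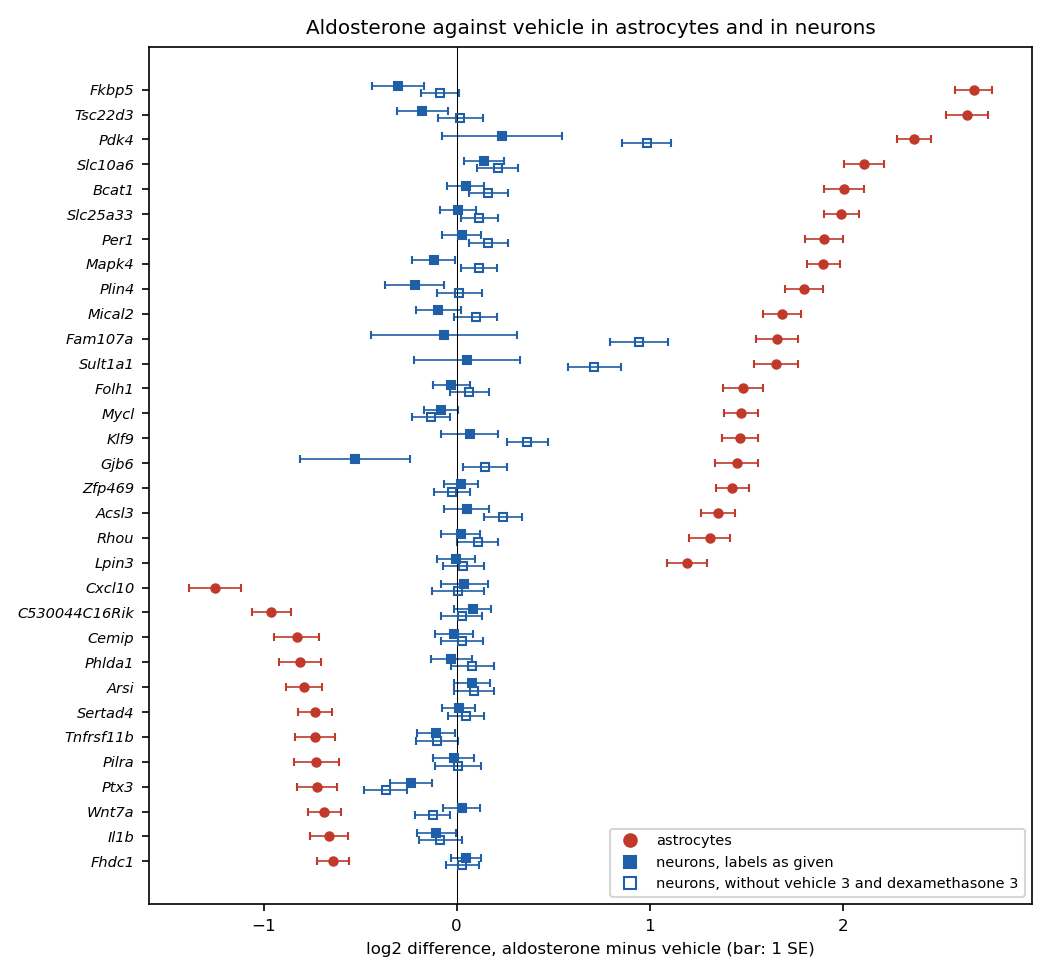
Log2 difference of aldosterone minus vehicle with its SE (horizontal axis) for the 20 largest rises and 12 largest falls of astrocytes (vertical axis), in astrocytes (red circles), in neurons with the labels as given (filled blue squares) and in neurons without the arrays vehicle 3 and dexamethasone 3 (open blue squares). Most neuronal values lie near 0, and those of Pdk4 and Fam107a move to 0.99 and 0.95 without the 2 arrays, which were set aside after such values were seen.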

How the data were processed

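The deposited values are log2 intensities of Illumina MouseWG-6 v2 arrays, which the authors normalized between arrays. Their methods describe background subtraction, quantile normalization and a t-test, and which steps gave the deposited values is not stated. The labels give each group 4 biological replicates.

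Astrocyte arrays were fitted with limma 3.58.1 (R 4.3.3) as 6 group means with the array number as a fixed block (degrees of freedom of 15 for the residuals and 18.1 for the prior). The cell types were compared in a fit of all 48 arrays with the block within each cell type. All adjusted p are Benjamini-Hochberg values from limma over 46174 probes at FDR 0.01. Astrocyte arrays were paired by number. Deviations from the group means correlated at 0.115 to 0.325 (median 0.225) for the 60 same-numbered pairs, above the 0.1 set as the limit. The 180 other pairs ran from -0.29 to 0.27 (median -0.147), so the ranges overlap and some other pairs also exceeded the limit. Taking deviations from group means ties the median of the other pairs to the same-numbered pairs, so it is no separate support.

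Of the probes, 35725 had 1 current symbol and 10449 none, and 56 kept the platform's name. Named genes are the 20 largest rises and 12 largest falls without overlap, the 5 largest differences each way in the other contrasts, genes the study names, and list members past the threshold. Members and lists were chosen with earlier results of these data known. Alternatives were no block, other sets of arrays, quantile normalization, a median shift, a filter at 7.5, a trended prior, the methods' t-test and each array left out. A background-corrected alternative was not run, since the unnormalized table has neither detection p nor controls, and by value just 1 of the 48 column identifiers in it matched the array of that name. The fit of aldosterone against vehicle was run on simulated data with the same block and independent noise, so this cannot check the block itself. It recovered 75% of the simulated log2 changes of 0.5 and 100% of those of 1. The number of arrays limits the precision. The limma p-values rest on the spread left within groups after the array number is taken out, partly pooled across probes. Python 3.11.15, pandas 2.3.3 and matplotlib 3.10.9 made tables and plots.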

Additional observations from a re-analysis of the deposited data

Results flagged for a closer look

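The effect of aldosterone, as a log2 difference from vehicle, was tested for a difference between astrocytes and neurons, and it differed for 129 probes and for 43 of the genes named here (limma, adjusted over all probes). It was more positive in astrocytes for the receptor targets Fkbp5 (2.98), Tsc22d3 (2.82), Pdk4 (2.13), Slc10a6 (1.97), Per1 (1.88), Klf9 (1.40), Sgk1 (0.98), Errfi1 (0.98), Arrdc2 (0.80), Zbtb16 (0.68) and Ddit4 (0.56). Metabolic genes with a more positive effect in astrocytes were Plin4 (2.02), Slc25a33 (1.99), Bcat1 (1.96), Acsl3 (1.30), Lpin3 (1.2), Sphk1 (0.81) and Pnpla2 (0.63). Among genes of signaling, structure and contact these were Mapk4 (2.02), Gjb6 (1.98), Mical2 (1.78), Folh1 (1.51), Rhou (1.29), Tns1 (1.27), Map3k6 (1.02), Hspb1 (0.94), Bcl2l1 (0.79) and Pik3r1 (0.58), and among those of nuclear proteins Mycl (1.55), Zfp469 (1.40), Klf13 (0.79), Foxo1 (0.69), Klf7 (0.58) and Fosl2 (0.55). The effect was more negative in astrocytes for Cxcl10 (-1.29), C530044C16Rik (-1.04), Arsi (-0.87), Cemip (-0.81), Phlda1 (-0.79), Sertad4 (-0.74), Pilra (-0.71), Wnt7a (-0.71) and Fhdc1 (-0.69). For Cxcl10, Arsi and Pilra the neuronal vehicle mean was under 7.5 (6.75, 7.15 and 6.87) and for C530044C16Rik it was 7.60, so a fall in neurons could hardly have been read and the difference mostly restates the astrocyte fall. Without the neuron arrays vehicle 3 and dexamethasone 3 all 43 kept their sign and 38 their call, Pilra, Wnt7a, Ddit4, Fosl2 and Pnpla2 losing it, and 36 kept it with neuron aldosterone array 3 left out too.

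Of these differences 10 did not pass without some single array of the 16. Those of Pdk4 and Phlda1 are given in the report. That of Wnt7a was lost without neuron vehicle array 3 (adjusted p = 0.0122) and that of Pnpla2 without that array or astrocyte vehicle array 2 (adjusted p up to 0.0165). That of Gjb6 was lost without astrocyte aldosterone array 1, 2 or 3, astrocyte vehicle array 1 or 3 or neuron aldosterone array 3 (adjusted p up to 0.0192), and was 1.22 ± 0.24 without neuron vehicle array 3 and 1.30 ± 0.15 without that and dexamethasone array 3. That of Pik3r1 was lost without astrocyte aldosterone array 2 or 3, astrocyte vehicle array 2 or neuron aldosterone array 4 (adjusted p up to 0.0206). Those of Arrdc2 (9 arrays), Pilra (10), Fosl2 (11) and Ddit4 (13) were lost without any 1 of most of the arrays, with an adjusted p up to 0.0241, 0.0461, 0.0507 and 0.0372.

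In 2 of 162 groups of 4 arrays looked at over 81 genes 1 array lay far from the rest. Sgk1 on aldosterone array 3 was 14.11, below the others at 14.65 to 14.74, and vehicle array 3 was the lowest of its group too. Tnf on vehicle array 1 was 8.13, above the others at 7.83 to 7.85. Chance gives such a gap in about 1 of 20 groups.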

How the results depend on the processing

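The methods' t-test pools no spread across probes, uses no block and takes its spread only from the 8 arrays compared. By it 11 probes passed against vehicle, all higher, with 3581 at an unadjusted p under 0.05. Against progesterone 0 passed, with 2130 at an unadjusted p under 0.05 (344 and 93 by limma). Of the 73 named genes past the threshold 9 kept their call by the t-test and 64 lost it, among them every gene named as lower. With no array number as a block 175 probes passed for aldosterone against vehicle in astrocytes (344 with the block), 60 for the difference between the cell types (129) and 53 for aldosterone against progesterone (93), and with all 48 arrays and no block the last was 55 and the first 242. Of the 73 named genes 61 kept their call without the block, and Arrdc2, Bcat2, Ccl4, Csf1, Dusp1, Gjb2, Nr1d2, S1pr3, Sesn1, Tnf, Traf1 and Trp63 lost it. Pairing raised the calls, and no named gene reversed under any alternative in astrocytes. Only the scaling alternatives and leaving out an array could change a sign, since the other fits give the same log2 difference. In the other fits of the first comparison 269 (its 8 arrays), 499 (48 arrays with the block), 384 (quantile normalization), 374 (median shift), 374 (filter at 7.5) and 370 (trended prior) probes passed, and 65.9% to 80.2% were higher under the scaling alternatives against 74.1%.

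Leaving out 1 array gave 244 to 343 probes for aldosterone against vehicle, 103 to 127 for the difference between the cell types and 70 to 78 for aldosterone against progesterone. Of the 73 named genes 60 kept their call without each of the 8 arrays in turn, and the 13 that lost it are named in the report with the arrays. In neurons, where no probe passed for aldosterone with the labels as given, 1 passed with the arrays vehicle 3 and dexamethasone 3 exchanged, 2 with both left out and 5 with neuron aldosterone array 3 left out too. The neuronal difference of Fam107a went from -0.07 to 0.95 (0.9456) and 1.17 in the last 2 fits, and the count for the difference between the cell types was 107 in the last. Exchanging or leaving out these arrays was chosen after seeing the data for neurons alone, values of Pdk4 and Fam107a among them. The neuronal calls of such genes thus partly follow from that choice, and the cause of the values on these arrays was not tested. Signal over background limits genes with means under 7.5, the receptor genes among them.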

Other observations

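Further genes that rose by about 1 on the log2 scale, are named here after their values were seen and stand for no common function. Smox, spermine oxidase, rose by 1.11 ± 0.09, Prodh, the mitochondrial proline dehydrogenase, by 1.01 ± 0.09, the kinase gene Pim3 by 1.10 ± 0.10, Mbd1, which encodes a protein that binds methylated DNA, by 1.03 ± 0.09, and the antiproliferative gene Tob2 by 0.99 ± 0.09. For each the 4 aldosterone arrays lay above the 4 vehicle arrays, and each kept its call without any single array. Ppp1r1b, which encodes the phosphatase inhibitor DARPP-32 of striatal neurons, rose from 9.59 to 10.08 with vehicle to 10.52 to 10.72 (0.79 ± 0.10), Ramp2, a partner of the calcitonin-like receptor, by 0.81 ± 0.10, and the elastin gene Eln by 0.66 ± 0.09. Bdnf, brain-derived neurotrophic factor, was lower by -0.51 ± 0.10 (adjusted p = 0.00345), a call lost without aldosterone array 1, 2 or 3 or vehicle array 1, 2 or 3 (adjusted p up to 0.0239). The Bdnf call was also lost without the block (adjusted p = 0.0592). Ets2, a transcription factor, was lower by -0.63 ± 0.10.

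Genes known from microglia and macrophages changed in both directions although none of the 10 microglial markers passed. Stab1, a scavenger receptor, rose by 0.62 ± 0.10, Fcgr3, an immunoglobulin receptor, by 0.53 ± 0.09, Tlr13, a receptor for bacterial RNA in the mouse, by 0.53 ± 0.09 and Ms4a6d by 0.53 ± 0.09. Without the block Tlr13 (adjusted p = 0.0132) and Ms4a6d (0.0107) missed the threshold. The complement gene C1qb rose by 0.55 ± 0.10, a call lost without aldosterone array 4 or vehicle array 1 (adjusted p up to 0.0205), while C1qa (0.37 ± 0.10) and C1qc (0.23 ± 0.09) did not pass. Hcar2, a receptor for nicotinic acid and ketone bodies, was lower by -0.59 ± 0.10 and kept its call without any single array. Acod1, Gpr84, Cd53 and Cd72 were also lower (-0.65, -0.49, -0.50 and -0.43), but each lost its call without any of 5 or 6 arrays, with an adjusted p up to 0.0527. Each also missed the threshold without the block (adjusted p of 0.0209 to 0.341), and the groups overlapped for Acod1, Cd53 and Cd72. These genes were picked from the genes that passed, so they say nothing on microglial genes as a whole.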
